A study of Homo sapiens with 9 samples.

Results

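The 28 genes described here encode 19 enzymes of cholesterol synthesis, the SREBP2 machinery that sets how much of those enzymes is made, and 3 proteins that move sterol inside the cell. They were chosen by gene symbol from a list of the pathway. The rule used no measured values, but the list was drawn up with earlier results of these data known. All 28 were found among the 18859 genes of the deposited log2 table. All 28 also passed the filter on low values, which left 15541 of the 30673 genes of the deposited FPKM table for testing. Of the 15541, 14604 have a length, which only the log2 table gives. Expression was measured by RNA sequencing in ACHN, an established human renal cell carcinoma line grown attached to the plate in MEM, in 3 groups of 3 samples: 0.1% DMSO, 25 nM piericidin A and 50 nM piericidin A. Piericidin A inhibits complex I, the NADH dehydrogenase of the respiratory chain, and DMSO is the solvent control. The sources used here do not give the length of treatment or say whether the piericidin A samples also held DMSO. All 9 samples come from this 1 line, and whether replicates were grown as separate cultures is not stated. The p-values therefore measure the spread between these samples, which may be technical.

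Cholesterol is assembled from acetyl-CoA units through mevalonate, the isoprenoids, squalene and lanosterol, mostly at the membrane of the endoplasmic reticulum. SREBP2, the product of SREBF2, is the transcription factor best known for driving these genes: when membrane sterol is low, SCAP escorts it to the Golgi, where the site-1 and site-2 proteases release the fragment that enters the nucleus. When sterol is ample, INSIG1 and INSIG2 hold SCAP back in the endoplasmic reticulum. Several late steps of the route use molecular oxygen and NADPH.

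Between 24365472 and 29245674 fragments were recovered per library. Levels are given in FPKM, in which fragments are scaled by gene length and library depth. Summed over all genes, FPKM ranged from 249274 to 255396 in DMSO, and replicate 3 at 25 nM stood apart at 310119 against 278870 and 281540 in the other libraries at that dose. Of the markers listed for renal epithelium, PAX8, at 66 to 93.5 FPKM, and KRT8, at 101 to 144 FPKM, were present throughout. PAX2, KRT18, CA12 and VIM were too, at 11.9 FPKM or more, while CDH16 reached only 0.841 to 2.02 FPKM. KRT8, KRT18 and VIM are not particular to the kidney. The endothelial markers PECAM1, VWF and CDH5 did not exceed 0.0199 FPKM, nor CD68, ALB and TTR 0.0379 FPKM. The fibroblast markers COL1A1, at 1.65 to 3.21 FPKM, PDGFRB, at 0.309 to 0.756 FPKM, and DCN, at 0.125 to 0.238 FPKM, were detected in every library, and the part of other cell types in the results was not tested. The 28 members together took up 0.168% ± 0.0016 of the fragments of a DMSO library, 0.160% ± 0.0053 of those of a 25 nM library and 0.157% ± 0.0027 of those of a 50 nM library (SD over 3 libraries each). Summed in FPKM, the members stood at 323 ± 3.9 in DMSO, 335 ± 3.3 at 25 nM and 300 ± 1.7 at 50 nM. The measures thus moved in opposite directions at 25 nM. In bulk RNA, fewer cells with a transcript and less of it per cell cannot be told apart.

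Members of the pathway were called in both directions. At 25 nM, 14 of 28 members were higher than in DMSO, beside 26.3% of all genes, and 6 were lower, beside 25.8%. Enzymes, which are 19 of the 28 members, made up 12 of the 14. At 50 nM, 7 members were higher, beside 29.2% of all genes, and 10 were lower, beside 31.5%, both near the background. With libraries scaled by total fragments the counts were 9 and 6, beside 5295 and 4109 of all 15541 genes. The enzyme genes FDPS and HSD17B7 and the retention factor INSIG1 were among the 7 that were higher at both doses, and INSIG2, SREBF2, MBTPS1, MBTPS2 and NPC1 were the 5 that were lower at both. INSIG2 had the lowest log2 fold change of any member at both doses, -0.64 ± 0.04 at 25 nM and -1.35 ± 0.04 at 50 nM (SE).

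Changes were called by limma on log2(FPKM + 0.1) at a Benjamini-Hochberg adjusted p under 0.05, and a fold change on this scale slightly understates the change of low genes. Much of the transcriptome passed this test, so the counts of members are read against the share of all genes. At 25 nM, 26.3% of the 15541 genes were called higher and 25.8% were called lower, which sets 14 of 28 above and 6 of 28 near the background. In either direction 20 of 28 members were called, beside 52.0% of all genes. Because the members were chosen with earlier results of these data known, the 14 of 28 is a description and not an independent test. At 50 nM, 29.2% of genes were called higher and 31.5% were called lower, and the members' 7 and 10 of 28 lie near those shares. In either direction 17 of 28 were called, beside 60.7% of all genes. The median log2 fold change of the members was 0.16 at 25 nM and -0.07 at 50 nM, beside medians of 0.02 and 0.00 over all genes. The background depends on the low genes. Over the 11048 genes with at least 1 FPKM in every library, the medians were -0.001 at 25 nM and -0.08 at 50 nM. The members tested there had medians of 0.16 and -0.04. At 50 nM 3038 of these genes were called higher and 4509 lower, beside 7 and 9 members. In 22 of 28 members the 25 nM libraries did not overlap the DMSO libraries, and in 20 of 28 the 50 nM libraries did not, beside 62.6% and 70.4% of all genes, so that the second count is near the background. Both comparisons share the 3 DMSO libraries, so the doses are not independent evidence of each other.

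**Figure D1:**
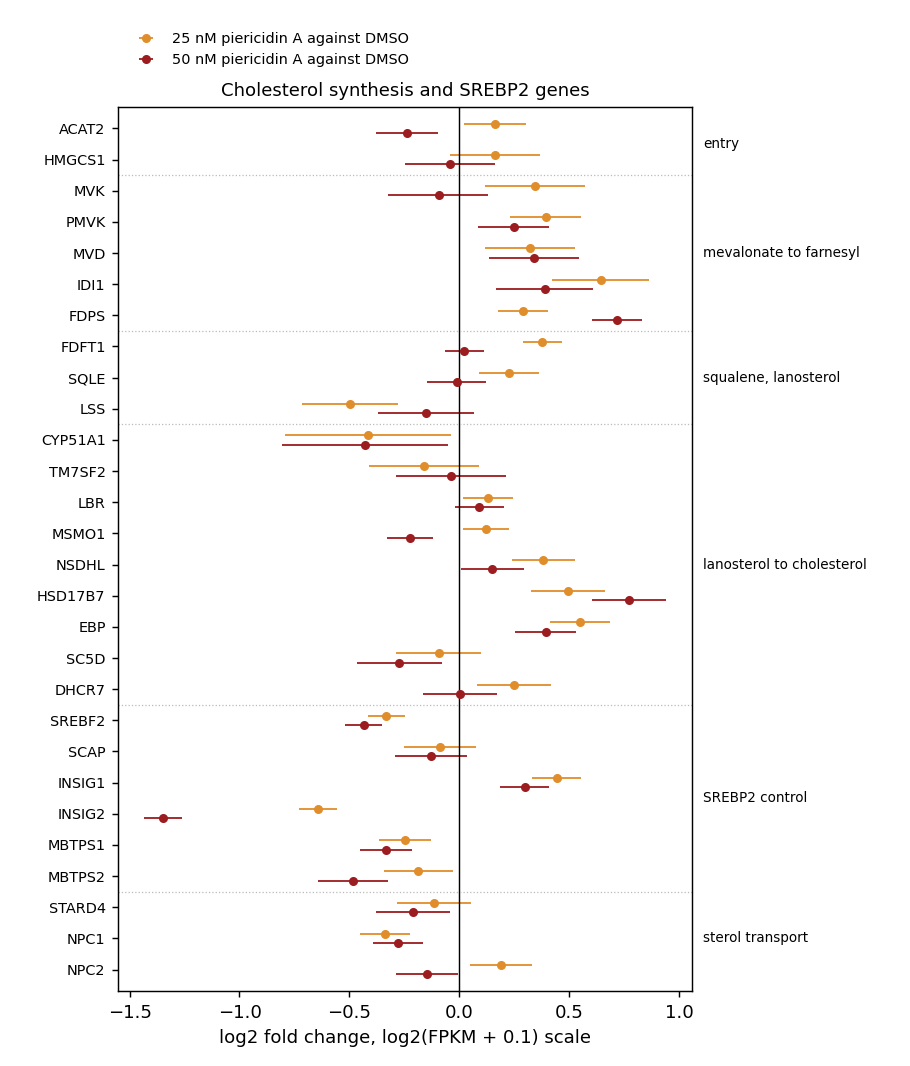
Log2 fold change of each of the 28 members at 25 nM (orange) and 50 nM (dark red) against DMSO, on the log2(FPKM + 0.1) scale, with 95% intervals from limma; members run down the page in pathway order. INSIG2 lies farthest to the left at both doses, and the 5 genes from MVK to FDPS lie right of 0 at 25 nM.

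Most of the 6 genes that control SREBP2 were called lower. SREBF2, the gene of SREBP2 itself, was lower at each dose. Both activating proteases were called lower at each dose too, but at 25 nM neither call held with the length trend over all genes removed (log2 values of -0.03 for MBTPS1 and -0.01 for MBTPS2; adjusted p = 0.59 and 0.948). SCAP did not pass the test, and the INSIG pair went opposite ways. Of the 6, 1 was called higher and 4 were called lower at each dose, with a median log2 fold change of -0.22 at 25 nM and -0.39 at 50 nM. Beside these counts, 26.3% of all genes were called higher and 25.8% lower at 25 nM, and 29.2% and 31.5% at 50 nM. INSIG2 measured 32.9, 33.5 and 34.6 FPKM in the DMSO libraries, 21.3, 22.3 and 20.9 FPKM at 25 nM and 13.2, 13.1 and 13.2 FPKM at 50 nM. INSIG2 (chr2:118088452-118110997, plus strand in hg38) makes the retention factor that is less dependent on SREBP activity, and its libraries stepped down with dose without overlap. It fell by 0.64 ± 0.04 on the log2 scale at 25 nM against DMSO (adjusted p = 4.95e-06), fell by 1.35 ± 0.04 at 50 nM against DMSO (adjusted p = 1.14e-07) and fell by 0.71 ± 0.04 at 50 nM against 25 nM (adjusted p = 0.00011). INSIG1 measured 16.6, 16.7 and 16.1 FPKM in the DMSO libraries, 23.7, 22.7 and 21.0 FPKM at 25 nM and 20.02, 19.9 and 20.8 FPKM at 50 nM. INSIG1 (chr7:155297776-155310235, plus strand), whose gene is itself an SREBP target, was above every DMSO library at both doses. It rose by 0.44 ± 0.05 at 25 nM (adjusted p = 0.000115) and by 0.30 ± 0.05 at 50 nM (adjusted p = 0.000681) against DMSO.

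The balance of the INSIG pair turned over. INSIG1 held 0.506, 0.498 and 0.466 times the FPKM of INSIG2 in the DMSO libraries, 1.112, 1.015 and 1.001 times at 25 nM, and 1.522, 1.523 and 1.573 times at 50 nM. INSIG2 was thus the more abundant of the pair per length in DMSO, the pair stood about level at 25 nM, and INSIG1 was the more abundant at 50 nM. The ratio averaged 1.04 ± 0.061 at 25 nM and 1.54 ± 0.029 at 50 nM, against 0.490 ± 0.021 in DMSO (SD, n = 3 each). No library of one group overlapped another group. An exact two-sided permutation test gave p = 0.1 for each of the 3 pairs of groups, the smallest p that 3 against 3 libraries allow, and 0.2 after Benjamini-Hochberg adjustment over the 6 ratio tests made here.

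**Figure D2:**
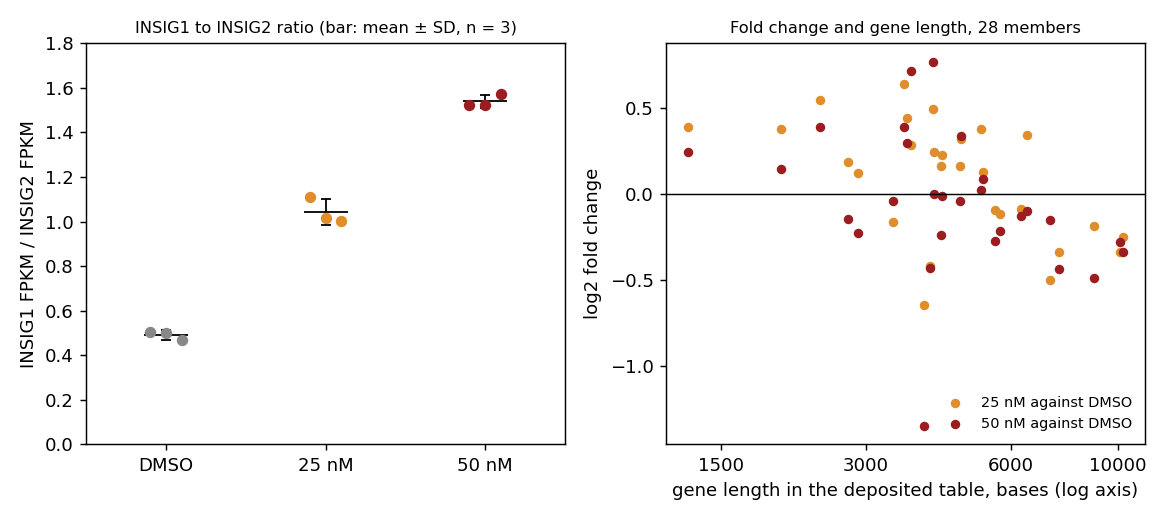
Left, ratio of INSIG1 to INSIG2 FPKM in each library (dots) with the group mean ± SD (bars, n = 3), for DMSO, 25 nM and 50 nM. The ratio lies near 0.490 in DMSO and near 1.54 at 50 nM. Right, log2 fold change of the 28 members at 25 nM (orange) and 50 nM (dark red) against DMSO by gene length in bases on a log axis, where longer members lie lower.

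SREBF2 measured 15.7, 15.6 and 15.9 FPKM in the DMSO libraries, 12.4, 12.4 and 12.6 FPKM at 25 nM and 11.7, 11.9 and 11.2 FPKM at 50 nM. The 3 DMSO libraries were high, and all piericidin A libraries were below them. SREBF2 (chr22:41833079-41907308, plus strand) fell by 0.33 ± 0.04 at 25 nM (adjusted p = 0.000117) and fell by 0.43 ± 0.04 at 50 nM (adjusted p = 1.36e-05). The antisense gene RP5-821D11.7, which overlaps SREBF2 on the other strand, averaged 1.21 FPKM in DMSO, 1.95 FPKM at 25 nM and 2.45 FPKM at 50 nM. Whether the libraries kept strand is not stated, so reads of the pair cannot be told apart. MBTPS1 measured 23.4, 22.2 and 22.8 FPKM in the DMSO libraries, 19.5, 20.3 and 18 FPKM at 25 nM and 18.9, 17.6 and 17.8 FPKM at 50 nM. MBTPS1 encodes the site-1 protease that makes the first cut in SREBP2, and its treated libraries were below every DMSO library. It fell by 0.25 ± 0.05 at 25 nM (adjusted p = 0.00379) and fell by 0.34 ± 0.05 at 50 nM (adjusted p = 0.000502). MBTPS2 measured 6.53, 6.74 and 6.61 FPKM in the DMSO libraries, 6.04, 6.17 and 5.26 FPKM at 25 nM and 4.42, 4.71 and 5.01 FPKM at 50 nM. MBTPS2 encodes the site-2 protease that frees the active fragment, and here too the treated libraries were all lower. It fell by 0.48 ± 0.07 at 50 nM (adjusted p = 0.000308) and fell by 0.19 ± 0.07 at 25 nM (adjusted p = 0.0499). The 25 nM value of MBTPS2 lost its call in 13 of 19 alternative settings: among the libraries it passed without 25 nM replicate 2, 50 nM replicate 1 or 50 nM replicate 3, and missed without any of the other 6, with log2 values of -0.21 to -0.12 and an adjusted p of 0.0578 to 0.128. YY2 lies on the same strand as MBTPS2 and overlaps it, at 0.404 FPKM in DMSO, 0.613 FPKM at 25 nM and 0.647 FPKM at 50 nM.

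SCAP measured 11.9, 11.5 and 12 FPKM in the DMSO libraries, 10.03, 10.9 and 12.5 FPKM at 25 nM and 11.2, 10.4 and 10.8 FPKM at 50 nM. The SCAP libraries of DMSO and 25 nM overlapped, and those at 50 nM lay below DMSO. SCAP, the escort of SREBP2, differed by -0.09 ± 0.07 at 25 nM (adjusted p = 0.338; 95% interval -0.25 to 0.08) and by -0.13 ± 0.07 at 50 nM (adjusted p = 0.158; -0.29 to 0.04), neither past the threshold. Without 25 nM replicate 3, in which SCAP was highest, the adjusted p was 0.0204 at 25 nM, with a log2 fold change of -0.17, and 0.0339 at 50 nM.

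Promoter windows from RefSeq (GRCh38.p14), from 250 bases before to 50 bases after each annotated start, were matched by symbol for 25 of the 28 members. The windows of INSIG2, INSIG1 and SREBF2 are shown because these 3 genes, all of the SREBP2 circuit, moved in different directions; INSIG2 came from the naming rule, and INSIG1 and SREBF2 were added after their values were seen. Capitals mark, on either strand, the sterol regulatory element core CACNCCAC, the NF-Y box CCAAT, the Sp1 box GGGCGG and the E-box CACGTG, where a match on the other strand appears as its reverse complement. Distances count from the RefSeq start of each window, which can differ from the start in the authors' table. The windows lie at chr2:118088221-118088520, plus strand, chr7:155297628-155297927, plus strand, and chr22:41832855-41833154, plus strand.
INSIG2: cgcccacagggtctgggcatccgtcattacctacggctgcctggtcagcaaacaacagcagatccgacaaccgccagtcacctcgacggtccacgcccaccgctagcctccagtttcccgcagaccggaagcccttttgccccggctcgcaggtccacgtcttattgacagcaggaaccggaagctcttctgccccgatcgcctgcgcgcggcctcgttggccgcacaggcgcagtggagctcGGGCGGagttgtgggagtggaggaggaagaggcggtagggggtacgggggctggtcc
INSIG1: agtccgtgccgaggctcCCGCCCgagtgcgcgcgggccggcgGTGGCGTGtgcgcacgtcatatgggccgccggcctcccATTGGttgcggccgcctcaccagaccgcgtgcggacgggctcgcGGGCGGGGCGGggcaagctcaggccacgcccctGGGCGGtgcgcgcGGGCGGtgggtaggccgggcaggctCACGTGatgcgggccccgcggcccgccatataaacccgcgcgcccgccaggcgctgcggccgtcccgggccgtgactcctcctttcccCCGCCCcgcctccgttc
SREBF2: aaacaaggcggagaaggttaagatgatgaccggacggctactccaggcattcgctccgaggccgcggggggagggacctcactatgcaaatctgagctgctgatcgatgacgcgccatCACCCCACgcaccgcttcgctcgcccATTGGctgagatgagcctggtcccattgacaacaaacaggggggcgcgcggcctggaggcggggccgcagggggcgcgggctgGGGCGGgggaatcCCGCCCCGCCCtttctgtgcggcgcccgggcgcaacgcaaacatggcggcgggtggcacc
The INSIG1 window holds a sterol regulatory element core with its first base 208 bases before the start, a CCAAT box 170 bases before it, an E-box 55 bases before it and 6 Sp1 boxes, of which a pair overlaps by its end letters. The SREBF2 window holds the same core 132 bases before the start, a CCAAT box 106 bases before it and 3 Sp1 boxes, of which a pair overlaps in the same way. In the INSIG2 window only 1 Sp1 box was found. INSIG2 has a second, overlapping RefSeq window, which holds that same box only.

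The 5 genes of the steps from mevalonate to farnesyl diphosphate, MVK, PMVK, MVD, IDI1 and FDPS, all rose at 25 nM. At 50 nM 4 of the 5, all but MVK, rose. Their median log2 fold change was 0.34 at 25 nM and 0.34 at 50 nM. Of all genes, 26.3% and 29.2% were called higher at these doses. FDPS measured 6.66, 6.98 and 7.13 FPKM in the DMSO libraries, 8.42, 8.22 and 8.81 FPKM at 25 nM and 11.9, 10.9 and 11.6 FPKM at 50 nM. FDPS makes farnesyl diphosphate, the branch point to squalene and to the prenyl groups of proteins, and its libraries stepped up with dose without overlap. It rose by 0.29 ± 0.05 at 25 nM (adjusted p = 0.00131) and by 0.72 ± 0.05 at 50 nM (adjusted p = 4.89e-06) against DMSO, and was 0.43 ± 0.05 higher at 50 nM than at 25 nM (adjusted p = 0.000566). The processed copies FDPSP2, at 0.0774, 0.630 and 1.06 FPKM in DMSO, 25 nM and 50 nM, and FDPSP7, at 0.103, 0.595 and 0.829 FPKM, could share reads with FDPS. The antisense gene RUSC1-AS1 overlaps FDPS and averaged 0.814 FPKM in DMSO, 2.28 FPKM at 25 nM and 3.99 FPKM at 50 nM. Reads of these genes and of FDPS cannot be told apart from the deposited tables.

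IDI1 measured 3.49, 3.42 and 3.45 FPKM in the DMSO libraries, 5.62, 5.21 and 5.54 FPKM at 25 nM and 3.83, 4.71 and 5.23 FPKM at 50 nM. IDI1 is the isomerase that interconverts the isoprenoid building blocks, and every treated library exceeded DMSO, with a wide spread at 50 nM. It rose by 0.64 ± 0.10 at 25 nM (adjusted p = 0.000615) and by 0.39 ± 0.10 at 50 nM (adjusted p = 0.00712). PMVK measured 20.1, 18.9 and 19.9 FPKM in the DMSO libraries, 25.7, 23.3 and 28.9 FPKM at 25 nM and 22.9, 22.9 and 24.4 FPKM at 50 nM. PMVK, phosphomevalonate kinase, was above DMSO in every treated library and highest in 25 nM replicate 3. It rose by 0.39 ± 0.07 at 25 nM (adjusted p = 0.00159) and by 0.25 ± 0.07 at 50 nM (adjusted p = 0.0139), where the call was lost without DMSO replicate 2 (0.22, adjusted p = 0.0523). MVD measured 6.42, 6.19 and 6.67 FPKM in the DMSO libraries, 7.43, 7.41 and 9.51 FPKM at 25 nM and 8.42, 7.85 and 8.24 FPKM at 50 nM. MVD, mevalonate diphosphate decarboxylase, was also above DMSO throughout, and 25 nM replicate 3 stood apart from the other libraries at that dose. It rose by 0.32 ± 0.09 at 25 nM (adjusted p = 0.0147) and by 0.34 ± 0.09 at 50 nM (adjusted p = 0.0093). The 25 nM change was 0.20 without 25 nM replicate 3 (adjusted p = 0.00739), and its call was lost without DMSO replicate 2 (0.30, adjusted p = 0.0521).

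MVK measured 2.40, 2.20 and 2.48 FPKM in the DMSO libraries, 3.21, 2.61 and 3.30 FPKM at 25 nM and 2.09, 2.41 and 2.12 FPKM at 50 nM. Mevalonate kinase, MVK, was high at 25 nM, and the 50 nM and DMSO libraries overlapped. MVK rose by 0.34 ± 0.10 at 25 nM (adjusted p = 0.0178), a call that was lost without DMSO replicate 2 (0.30, adjusted p = 0.0672), without 25 nM replicate 1 (0.30, adjusted p = 0.0607) and without 25 nM replicate 3 (0.28, adjusted p = 0.0536). At 50 nM it differed from DMSO by -0.09 ± 0.10 (adjusted p = 0.441), with a 95% interval of -0.32 to 0.13. The overlapping gene MMAB on the other strand averaged 2.90 FPKM in DMSO, 3.62 FPKM at 25 nM and 3.37 FPKM at 50 nM.

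The promoter of FDPS, the gene of these 5 with the largest change at 50 nM, is shown with the same marking (chr1:155308616-155308915, plus strand).
FDPS: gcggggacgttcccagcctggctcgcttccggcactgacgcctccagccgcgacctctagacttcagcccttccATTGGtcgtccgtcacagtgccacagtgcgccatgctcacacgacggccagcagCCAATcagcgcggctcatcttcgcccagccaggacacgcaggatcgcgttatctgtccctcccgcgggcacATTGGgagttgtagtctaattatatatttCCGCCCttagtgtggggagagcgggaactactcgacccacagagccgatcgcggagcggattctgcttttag
It holds 3 CCAAT boxes, with first bases 176, 122 and 51 bases before the start, and 1 Sp1 box 22 bases before it. No match to CACNCCAC or CACGTG lies in these letters.

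Upstream of mevalonate, neither entry gene was called higher. ACAT2 measured 3.46, 3.84 and 3.51 FPKM in the DMSO libraries, 4.07, 3.94 and 4.11 FPKM at 25 nM and 3.13, 3.15 and 2.84 FPKM at 50 nM. ACAT2, the cytosolic thiolase that joins acetyl-CoA units, was above every DMSO library at 25 nM and below every DMSO library at 50 nM. Its log2 fold change was 0.16 ± 0.06 at 25 nM, which missed the threshold (adjusted p = 0.0562), and it fell by 0.24 ± 0.06 at 50 nM (adjusted p = 0.00916). The 25 nM value passed without DMSO replicate 2 (0.21, adjusted p = 0.0377) and without 50 nM replicate 3 (0.16, adjusted p = 0.0438). ACAT2 overlaps SOD2 and TCP1 on the other strand, and SOD2 averaged 108 FPKM in DMSO, 64.3 FPKM at 25 nM and 59.1 FPKM at 50 nM, far above ACAT2. HMGCS1 measured 4.59, 4.86 and 4.34 FPKM in the DMSO libraries, 5.54, 5.63 and 4.39 FPKM at 25 nM and 4.53, 4.37 and 4.49 FPKM at 50 nM. HMGCS1, the synthase that makes HMG-CoA, was high in 2 of the 3 libraries at 25 nM and otherwise overlapped. Its differences from DMSO, 0.16 ± 0.09 at 25 nM (adjusted p = 0.162) and -0.04 ± 0.09 at 50 nM (adjusted p = 0.719), did not pass the test. Without 25 nM replicate 3 the value at 25 nM was 0.28 and passed (adjusted p = 0.00328).

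**Figure D3:**
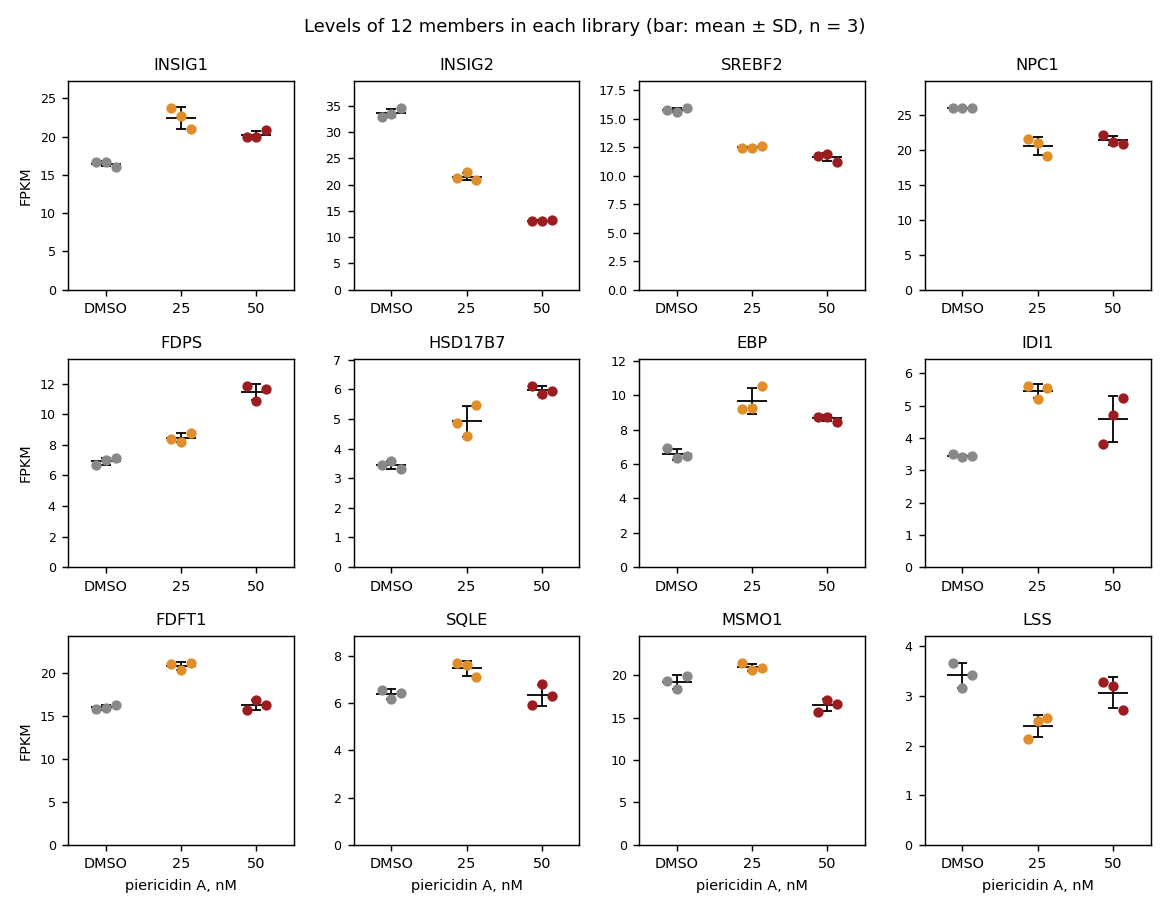
FPKM of 12 members in each library (dots) with the group mean ± SD (bars, n = 3), for DMSO, 25 nM and 50 nM piericidin A; each vertical axis starts at 0. FDPS and HSD17B7 step up with dose, INSIG2 steps down, and FDFT1, SQLE and MSMO1 are highest at 25 nM.

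The 3 genes between farnesyl diphosphate and lanosterol were all called at 25 nM, 2 higher and 1 lower, and none passed the test at 50 nM against DMSO. Over all genes, 26.3% were called higher and 25.8% lower at 25 nM, and 60.7% in either direction at 50 nM. FDFT1 measured 15.8, 15.9 and 16.4 FPKM in the DMSO libraries, 21.1, 20.4 and 21.2 FPKM at 25 nM and 15.7, 16.9 and 16.3 FPKM at 50 nM. FDFT1, squalene synthase and the first enzyme committed to sterols, was high at 25 nM in all 3 libraries, while 50 nM and DMSO overlapped. It rose by 0.38 ± 0.04 at 25 nM (adjusted p = 9.04e-05), and at 50 nM its difference from DMSO was 0.02 ± 0.04 (adjusted p = 0.621; 95% interval -0.07 to 0.12). SQLE measured 6.56, 6.17 and 6.44 FPKM in the DMSO libraries, 7.70, 7.65 and 7.13 FPKM at 25 nM and 5.91, 6.80 and 6.32 FPKM at 50 nM. SQLE, squalene epoxidase, an oxygen-requiring step, was also high at 25 nM, with the 50 nM and DMSO libraries overlapping. It rose by 0.23 ± 0.06 at 25 nM (adjusted p = 0.0117) and differed by -0.01 ± 0.06 at 50 nM (adjusted p = 0.875; -0.15 to 0.12). LSS measured 3.66, 3.17 and 3.42 FPKM in the DMSO libraries, 2.14, 2.50 and 2.55 FPKM at 25 nM and 3.29, 3.20 and 2.72 FPKM at 50 nM. LSS, lanosterol synthase, which closes the rings, was low at 25 nM and overlapped DMSO at 50 nM. It fell by 0.50 ± 0.10 at 25 nM (adjusted p = 0.00234) and differed by -0.15 ± 0.10 at 50 nM (adjusted p = 0.201; -0.37 to 0.07).

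Of the 9 genes from lanosterol to cholesterol, 5 were called higher and 0 lower at 25 nM, with a median log2 fold change of 0.13. At 50 nM 2 were called higher and 3 lower, with a median of 0.00. Beside these counts, 26.3% of all genes were called higher and 25.8% lower at 25 nM, and 29.2% and 31.5% at 50 nM. HSD17B7 measured 3.43, 3.60 and 3.32 FPKM in the DMSO libraries, 4.87, 4.43 and 5.46 FPKM at 25 nM and 6.12, 5.83 and 5.93 FPKM at 50 nM. HSD17B7, the 3-ketosteroid reductase of the demethylation steps, stepped up with dose without overlap. It rose by 0.49 ± 0.07 at 25 nM (adjusted p = 0.000558) and by 0.77 ± 0.07 at 50 nM (adjusted p = 2.71e-05), the largest rise of any member at that dose. The pseudogene HSD17B7P2 did not exceed 0.0806 FPKM in any library. EBP measured 6.92, 6.34 and 6.44 FPKM in the DMSO libraries, 9.19, 9.28 and 10.6 FPKM at 25 nM and 8.75, 8.75 and 8.45 FPKM at 50 nM. EBP, the isomerase that moves the double bond of the sterol ring, was above DMSO in all treated libraries and highest in 25 nM replicate 3. It rose by 0.55 ± 0.06 at 25 nM (adjusted p = 0.000117) and by 0.39 ± 0.06 at 50 nM (adjusted p = 0.000477). NSDHL measured 4.81, 4.57 and 5.15 FPKM in the DMSO libraries, 6.21, 5.97 and 6.85 FPKM at 25 nM and 5.37, 5.45 and 5.32 FPKM at 50 nM. NSDHL, the decarboxylating dehydrogenase of the same demethylation, rose by 0.38 ± 0.06 at 25 nM (adjusted p = 0.00103). At 50 nM its libraries again lay above DMSO, but the difference of 0.15 ± 0.06 missed the threshold (adjusted p = 0.0675), and it passed without DMSO replicate 3 (0.19, adjusted p = 0.0418) and without 25 nM replicate 3 (0.15, adjusted p = 0.027).

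The promoters of HSD17B7 (chr1:162790452-162790751, plus strand) and EBP (chrX:48521558-48521857, plus strand) are shown because these were the late-pathway genes with the largest changes called at both doses.
HSD17B7: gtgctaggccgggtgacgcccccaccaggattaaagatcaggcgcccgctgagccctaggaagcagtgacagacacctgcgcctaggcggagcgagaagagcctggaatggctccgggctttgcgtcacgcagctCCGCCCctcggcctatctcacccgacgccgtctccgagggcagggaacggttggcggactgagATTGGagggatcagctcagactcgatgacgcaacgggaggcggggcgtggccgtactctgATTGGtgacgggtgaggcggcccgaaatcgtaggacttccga
EBP: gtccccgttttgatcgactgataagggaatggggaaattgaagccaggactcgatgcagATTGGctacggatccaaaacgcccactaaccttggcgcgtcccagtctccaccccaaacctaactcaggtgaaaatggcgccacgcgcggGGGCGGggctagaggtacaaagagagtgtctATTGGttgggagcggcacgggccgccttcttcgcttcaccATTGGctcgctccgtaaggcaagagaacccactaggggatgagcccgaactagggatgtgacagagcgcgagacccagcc
HSD17B7 carries CCAAT boxes with first bases 52 bases before and 9 bases after the start and 1 Sp1 box 115 bases before it. EBP carries 3 CCAAT boxes, 191, 70 and 30 bases before the start, and 1 Sp1 box 101 bases before it. As in FDPS, no match to CACNCCAC or CACGTG was found in either window.

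MSMO1 measured 19.4, 18.4 and 19.9 FPKM in the DMSO libraries, 21.4, 20.6 and 20.8 FPKM at 25 nM and 15.7, 17.1 and 16.7 FPKM at 50 nM. The oxygen-using methyl oxidase MSMO1 was just above every DMSO library at 25 nM and below every one at 50 nM. MSMO1 fell by 0.22 ± 0.05 at 50 nM (adjusted p = 0.00259), whereas its difference at 25 nM, 0.12 ± 0.05, only just passed (adjusted p = 0.0497). The 25 nM call was lost in 13 of 19 alternative settings; among the libraries it held without DMSO replicate 3 or 50 nM replicate 1 and was lost without any of the other 7, with log2 values of 0.09 to 0.14 and an adjusted p of 0.0549 to 0.181. DHCR7 measured 6.12, 5.84 and 5.72 FPKM in the DMSO libraries, 6.86, 6.65 and 7.56 FPKM at 25 nM and 5.95, 6.44 and 5.36 FPKM at 50 nM. DHCR7, the reductase that makes cholesterol from 7-dehydrocholesterol, was high at 25 nM, and its 50 nM libraries fell on both sides of DMSO. It rose by 0.25 ± 0.07 at 25 nM (adjusted p = 0.02), a call lost without DMSO replicate 2 (0.24, adjusted p = 0.0573), without DMSO replicate 3 (0.23, adjusted p = 0.0679) and without 25 nM replicate 3 (0.19, adjusted p = 0.0543). At 50 nM it differed by 0.00 ± 0.07 (adjusted p = 0.979; 95% interval -0.17 to 0.17).

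SC5D measured 4.27, 4.43 and 4.35 FPKM in the DMSO libraries, 4.09, 4.28 and 3.86 FPKM at 25 nM and 3.11, 3.72 and 3.98 FPKM at 50 nM. SC5D, the sterol desaturase before DHCR7, overlapped DMSO at 25 nM and lay below it at 50 nM. It differed by -0.09 ± 0.09 at 25 nM (adjusted p = 0.386) and fell by 0.27 ± 0.09 at 50 nM (adjusted p = 0.0204). The log2 value was -0.17 without 50 nM replicate 1 (adjusted p = 0.0463), and its call was lost without DMSO replicate 2 (-0.26, adjusted p = 0.0605) and without DMSO replicate 3 (-0.27, adjusted p = 0.0527). CYP51A1 measured 0.961, 0.944 and 1.21 FPKM in the DMSO libraries, 0.855, 0.712 and 0.692 FPKM at 25 nM and 0.627, 0.899 and 0.722 FPKM at 50 nM. The lanosterol demethylase CYP51A1 was the lowest member, from 66 to 144 fragments per library, and its treated libraries all lay below DMSO. CYP51A1 differed by -0.41 ± 0.17 at 25 nM (adjusted p = 0.0632) and by -0.43 ± 0.17 at 50 nM (adjusted p = 0.0495). The 50 nM call held without 50 nM replicate 2 and was lost without any 1 of the other 8 libraries, with log2 values of -0.49 to -0.32 and an adjusted p of 0.0521 to 0.177.

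The sterol reductase step that follows demethylation by CYP51A1 has a pair of enzymes, LBR, which is also a protein of the nuclear envelope, and TM7SF2. LBR measured 35.6, 35.4 and 36.8 FPKM in the DMSO libraries, 41.1, 40.8 and 36.4 FPKM at 25 nM and 38.3, 37.6 and 39.1 FPKM at 50 nM. TM7SF2 measured 4.79, 4.50 and 3.92 FPKM in the DMSO libraries, 3.71, 3.59 and 4.53 FPKM at 25 nM and 4.70, 4.34 and 3.84 FPKM at 50 nM. Neither was called in any comparison, and LBR was the more abundant per length in every library. LBR differed from DMSO by 0.13 ± 0.05 at 25 nM (adjusted p = 0.0533) and by 0.09 ± 0.05 at 50 nM (adjusted p = 0.141), where all 3 libraries were above DMSO. Without 25 nM replicate 3, the lowest of its dose, LBR passed at 25 nM with a value of 0.19 (adjusted p = 0.00138) and at 50 nM (adjusted p = 0.019). TM7SF2 differed by -0.16 ± 0.11 at 25 nM (adjusted p = 0.256; 95% interval -0.41 to 0.09) and by -0.04 ± 0.11 at 50 nM (adjusted p = 0.796; -0.29 to 0.21). It overlaps VPS51 on the same strand, which averaged 8.32 FPKM in DMSO, 8.26 FPKM at 25 nM and 7.43 FPKM at 50 nM. The LBR to TM7SF2 ratio averaged 10.17 ± 1.842 at 25 nM and 8.997 ± 1.054 at 50 nM, against 8.233 ± 1.029 in DMSO (SD, n = 3 each; exact two-sided permutation p = 0.2 and 0.4, adjusted 0.3 and 0.4).

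Over all 19 enzymes, 12 were called higher and 1, LSS, lower at 25 nM, beside 26.3% and 25.8% of all genes. Their median log2 fold change was 0.25. At 50 nM 6 were called higher and 4 lower, beside 29.2% and 31.5% of all genes. The count of higher enzymes at 50 nM lies near the background. The median there was 0.00, beside 0.00 over all genes and -0.08 over the genes with at least 1 FPKM in every library. The enzyme genes, which are 19 of the 28 members, thus held 12 of the 14 calls of higher at 25 nM, and INSIG1 and NPC2 were the others.

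**Figure D4:**
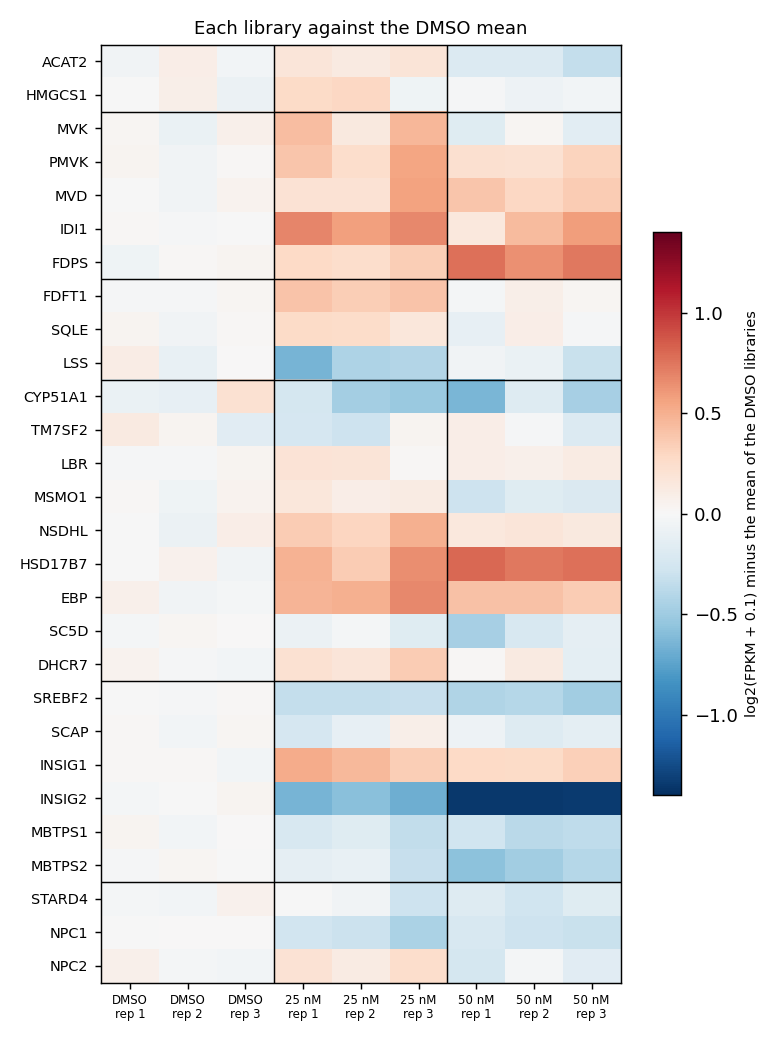
Log2(FPKM + 0.1) of each member in each of the 9 libraries minus the mean of the 3 DMSO libraries (red higher, blue lower), in pathway order from ACAT2 at the top. Columns run from DMSO through 25 nM to 50 nM. INSIG2 is the darkest blue at 50 nM, and replicate 3 at 25 nM has the deepest red of its dose for PMVK, MVD and EBP.

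Of the 3 sterol carriers, the pair that exports cholesterol from the late endosome parted at 25 nM. NPC1 measured 26.0, 26.0 and 26.0 FPKM in the DMSO libraries, 21.6, 21.0 and 19.1 FPKM at 25 nM and 22.2, 21.2 and 20.9 FPKM at 50 nM. NPC1 (chr18:23506184-23586898, minus strand), the membrane protein of that pair, was tightly grouped in DMSO, and every treated library was below. It fell by 0.34 ± 0.05 at 25 nM (adjusted p = 0.000514) and fell by 0.28 ± 0.05 at 50 nM (adjusted p = 0.00105). NPC2 measured 24.5, 22.9 and 22.6 FPKM in the DMSO libraries, 26.8, 25.3 and 27.8 FPKM at 25 nM and 19.6, 22.9 and 20.9 FPKM at 50 nM. NPC2, the soluble partner that hands cholesterol to NPC1, was above DMSO at 25 nM and overlapped it at 50 nM. It rose by 0.19 ± 0.06 at 25 nM (adjusted p = 0.0301), a call lost without DMSO replicate 2 (0.18, adjusted p = 0.089), without DMSO replicate 3 (0.17, adjusted p = 0.0989), without 25 nM replicate 1 (0.18, adjusted p = 0.0717) and without 25 nM replicate 3 (0.16, adjusted p = 0.0747). At 50 nM the difference was -0.14 ± 0.06 (adjusted p = 0.0699), which passed without 50 nM replicate 2 (-0.20, adjusted p = 0.0183). NPC2 overlaps ISCA2 on the other strand, which averaged 5.54 FPKM in DMSO, 6.27 FPKM at 25 nM and 5.25 FPKM at 50 nM.

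STARD4 measured 7.67, 7.62 and 8.17 FPKM in the DMSO libraries, 7.78, 7.56 and 6.37 FPKM at 25 nM and 6.87, 6.43 and 6.93 FPKM at 50 nM. STARD4, a soluble carrier that moves cholesterol between membranes, overlapped DMSO at 25 nM and lay below it at 50 nM. It differed by -0.12 ± 0.07 at 25 nM (adjusted p = 0.23) and by -0.21 ± 0.07 at 50 nM (adjusted p = 0.0353). The 50 nM call was lost without any 1 of the 6 libraries compared, with log2 values of -0.23 to -0.18 and an adjusted p of 0.0535 to 0.115.

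Set directly against 25 nM, 50 nM was lower for most members that differed. Of the 28, 14 were called, beside 33.5% of all genes. The 3 called higher and 11 called lower at 50 nM than at 25 nM stand beside 14.7% and 18.8% of all genes, and the libraries of 16 members did not overlap, beside 45.4% of all genes. The members' median log2 difference was -0.15, beside -0.01 over all genes. With at least 1 FPKM in every library it was -0.16, beside -0.07 over the 11048 genes tested there. Of those genes 1608 were called higher and 3079 lower, beside 3 and 12 members. In the reported fit, the 3 that were higher at 50 nM were FDPS, HSD17B7 and LSS. This comparison shares its libraries with both comparisons against DMSO. The 11 that were lower were ACAT2, MVK, FDFT1, SQLE, MSMO1, NSDHL, DHCR7, INSIG1, INSIG2, MBTPS2 and NPC2.

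FDFT1 was lower at 50 nM than at 25 nM, with a log2 difference of -0.35 ± 0.04 (adjusted p = 0.000493), as was MVK, with -0.44 ± 0.10 (adjusted p = 0.0103). NPC2 differed by -0.34 ± 0.06 (adjusted p = 0.00395), SQLE by -0.24 ± 0.06 (adjusted p = 0.0156) and NSDHL by -0.23 ± 0.06 (adjusted p = 0.022). The SQLE call was lost without 25 nM replicate 1 (-0.22, adjusted p = 0.0523) and without 50 nM replicate 1 (-0.19, adjusted p = 0.0566), and the NSDHL call without 50 nM replicate 1 (-0.23, adjusted p = 0.0641) and without 50 nM replicate 3 (-0.22, adjusted p = 0.0577). DHCR7 differed by -0.24 ± 0.07 (adjusted p = 0.0322), and its call was lost without DMSO replicate 2, 25 nM replicate 1 or 3, or 50 nM replicate 1 or 3, with log2 values of -0.26 to -0.18 and an adjusted p of 0.0506 to 0.0933. ACAT2 differed by -0.40 ± 0.06 (adjusted p = 0.00185), MSMO1 by -0.35 ± 0.05 (adjusted p = 0.000935) and MBTPS2 by -0.30 ± 0.07 (adjusted p = 0.0112).

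HSD17B7 was higher at 50 nM than at 25 nM by 0.28 ± 0.07 (adjusted p = 0.0192), a call lost without 25 nM replicate 1 (0.27, adjusted p = 0.0522) and without 50 nM replicate 1 (0.26, adjusted p = 0.0686). LSS was higher by 0.34 ± 0.10 (adjusted p = 0.0235), a call lost without 25 nM replicate 1 (0.27, adjusted p = 0.0745), without 50 nM replicate 1 (0.29, adjusted p = 0.0889) and without 50 nM replicate 2 (0.31, adjusted p = 0.0715), and also with only these groups fitted (adjusted p = 0.0543). INSIG1 differed by -0.15 ± 0.05 (adjusted p = 0.0469), and that call was lost in 14 of 19 alternative settings, including without each library other than 25 nM replicate 3, with log2 values of -0.17 to -0.11 and an adjusted p of 0.0568 to 0.149. SREBF2 at -0.10 ± 0.04 (adjusted p = 0.0608), IDI1 at -0.26 ± 0.10 (adjusted p = 0.0741) and EBP at -0.16 ± 0.06 (adjusted p = 0.0771) missed the threshold, and the IDI1 value passed without 50 nM replicate 3 (-0.35, adjusted p = 0.0197). PMVK, at -0.15 ± 0.07 (adjusted p = 0.145), passed without 25 nM replicate 2 (-0.22, adjusted p = 0.0284).

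The remaining differences between the doses did not pass the test and ran from -0.20 ± 0.09 for HMGCS1 (adjusted p = 0.115) to 0.12 ± 0.11 for TM7SF2 (adjusted p = 0.421). Without 25 nM replicate 3, HMGCS1 at -0.32 (adjusted p = 0.00272), STARD4 at -0.18 (0.0205), MBTPS1 at -0.14 (0.0332) and LBR at -0.10 (0.0435) passed, and 14 members were called lower in place of 11. Without 50 nM replicate 1, 7 members were called lower and 1 higher, and without 25 nM replicate 1, 8 were called lower and 1 higher. The calls over all 15541 genes moved too, from 2917 lower and 2288 higher. They were 3397 and 2432 without 25 nM replicate 3, 1972 and 1469 without 50 nM replicate 1, and 2349 and 1826 without 25 nM replicate 1.

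Gene length moved with the fold changes. Across the 28 members, 1280 to 10238 bases long, Spearman's rho of length with the log2 fold change was -0.54 at 25 nM and -0.52 at 50 nM, beside -0.36 and -0.37 over 14604 genes with a length; these describe genes that share libraries. With the trend on length over all genes removed, an alternative chosen after seeing the data, INSIG2 stood at -0.67 and -1.31, FDPS at 0.25 and 0.74 and HSD17B7 at 0.48 and 0.82 at 25 nM and 50 nM, all still called. SREBF2 stood at -0.20 and -0.29, and MBTPS2 at 50 nM at -0.31. MBTPS1 stood at -0.03 at 25 nM, which lost the call (adjusted p = 0.59), and at -0.12 at 50 nM. NPC1 stood at -0.12 at 25 nM and at -0.07 at 50 nM, where the call was lost (adjusted p = 0.0902). NSDHL stood at 0.21 and PMVK at 0.18 at 25 nM, and PMVK at 0.01 lost its call at 50 nM (adjusted p = 0.942). NPC2 and MSMO1 at 25 nM also lost theirs, at 0.08 (adjusted p = 0.203) and 0.02 (0.698). Calls were also lost for MBTPS2 at 25 nM, at -0.01 (adjusted p = 0.948), and at 50 nM for SC5D, at -0.16 (0.11), STARD4, at -0.10 (0.258), and CYP51A1, at -0.38 (0.0648). Between the doses DHCR7 lost its call at -0.18 (0.0619) and INSIG1 at -0.08 (0.319). Calls were gained for LBR, at 0.18 at 25 nM (adjusted p = 0.00884) and 0.19 at 50 nM (0.00474), for FDFT1 and NPC2 at 50 nM, at 0.12 (0.0172) and -0.18 (0.00845), for CYP51A1 at 25 nM, at -0.43 (0.0454), and for PMVK between the doses, at -0.17 (0.0218).

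The balance of calls at 50 nM against DMSO moved with the scaling between libraries and with other settings. The cause was not tested. Centring on the median gene left the 7 higher and 10 lower members of the reported fit, beside 4246 and 5111 of all genes. With the length trend removed, or without DMSO replicate 3, 8 were higher and 7 lower. Over all genes, 4434 of 14604 were higher and 4491 lower in the former setting, and 3993 and 4338 of 15541 in the latter. With libraries scaled by their total fragments in place of the authors' scaling, 9 members were called higher and 6 lower at 50 nM against DMSO, in place of 7 and 10. Of all genes, 5295 were then called higher and 4109 lower, in place of 4540 and 4901. Between the doses that scaling gave 3 higher and 6 lower members, in place of 3 and 11, and 3153 higher and 1358 lower genes, in place of 2288 and 2917. The calls at 50 nM against DMSO that it ended were those of ACAT2 at -0.17 (adjusted p = 0.0536), SC5D at -0.20 (0.059), CYP51A1 at -0.37 (0.0873) and STARD4 at -0.14 (0.171). Between the doses it ended the calls of SQLE at -0.14 (adjusted p = 0.121), NSDHL at -0.14 (0.128), DHCR7 at -0.15 (0.163), INSIG1 at -0.05 (0.542) and MBTPS2 at -0.20 (0.0707), and at 25 nM that of MSMO1 at 0.10 (0.104). NSDHL and LBR at 50 nM passed under it, at 0.22 (0.0117) and 0.16 (0.0327). INSIG2, SREBF2, MBTPS1, MBTPS2, NPC1 and MSMO1 were called lower under both scalings at 50 nM.

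In the DMSO libraries the members spanned a wide range of levels. LBR, at 36.0 ± 0.76 FPKM, and INSIG2, at 33.6 ± 0.84 FPKM, were the highest, followed by NPC1 at 26.0 ± 0.017, NPC2 at 23.3 ± 0.99 and MBTPS1 at 22.8 ± 0.62 FPKM (SD, n = 3). NPC2 and MBTPS1 did not differ beyond their spread, nor did PMVK at 19.7 ± 0.64 and MSMO1 at 19.2 ± 0.79 FPKM. The highest sterol enzyme genes after LBR were PMVK, MSMO1 and FDFT1, the last at 16.0 ± 0.28 FPKM, beside INSIG1 at 16.5 ± 0.32 and SREBF2 at 15.8 ± 0.16 FPKM. MVK, at 2.36 ± 0.15 FPKM, and CYP51A1, at 1.04 ± 0.15 FPKM, were the lowest.

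Among the 25 members with a promoter window, CCAAT was found in 17, GGGCGG in 21, and CACNCCAC and CACGTG in 4 each, with CACNCCAC in IDI1, INSIG1, SC5D and SREBF2. Of the members called higher at 25 nM, 11 of 12 with a window held CCAAT, against 2 of 6 called lower, LSS and SREBF2, and 4 of 7 not called. At 50 nM the counts were 6 of 7 called higher, 4 of 9 called lower and 7 of 9 not called. Counted by window, CCAAT lay in 59.4% of the 32 member windows and 34.6% of all 35116 windows of this length, GGGCGG in 84.4% and 45%, CACNCCAC in 15.6% and 5.87%, and CACGTG in 15.6% and 7.26%. These are matches of letters in a fixed window and were not tested as binding sites.

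Linked steps outside the 28 were counted in 4 lists of 46 genes, of which 45 were tested. At 25 nM 16 were called higher and 11 lower, at 50 nM 14 and 14, and between the doses 2 and 16, with medians of 0.05, 0.00 and -0.10. Beside the shares of all genes, 26.3% higher and 25.8% lower at 25 nM, 29.2% and 31.5% at 50 nM, and 14.7% and 18.8% between the doses, the count of lower genes at 25 nM and both counts at 50 nM lie near the background. In the branches to dolichol, ubiquinone and prenylated proteins, 4 of 13 were called higher and 2 lower at 25 nM, and 4 and 3 at 50 nM. COQ2, which attaches the isoprenoid tail of ubiquinone, measured 6.09 ± 0.592 FPKM at 25 nM and 5.76 ± 0.362 FPKM at 50 nM, against 3.94 ± 0.203 FPKM in DMSO (SD, n = 3 each). It rose by 0.61 ± 0.08 at 25 nM (adjusted p = 0.000242) and by 0.54 ± 0.08 at 50 nM (adjusted p = 0.000332). NUS1, a subunit of the dolichol-forming prenyltransferase, fell by 0.34 ± 0.05 at 25 nM (adjusted p = 0.000345) and fell by 0.49 ± 0.05 at 50 nM (adjusted p = 2.49e-05). RABGGTB, a subunit of the Rab prenyltransferase, rose by 0.45 ± 0.05 at 25 nM (adjusted p = 0.000176) and by 0.51 ± 0.05 at 50 nM (adjusted p = 5.26e-05), and overlaps ACADM on the same strand.

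Of 12 tested genes of sterol uptake, storage and transfer, 3 were called higher and 4 lower at 25 nM, and 3 and 5 at 50 nM. For so small a list, these counts lie near the background. The shares of all genes were 26.3% and 25.8% at 25 nM and 29.2% and 31.5% at 50 nM. VLDLR, a lipoprotein receptor, fell by 0.34 ± 0.04 at 25 nM (adjusted p = 0.000186) and fell by 0.48 ± 0.04 at 50 nM (adjusted p = 1.39e-05), and stood at -0.15 and -0.30 with the length trend removed. OSBP, which exchanges sterol between the endoplasmic reticulum and the Golgi, fell by 0.32 ± 0.06 at 25 nM (adjusted p = 0.00161) and fell by 0.63 ± 0.06 at 50 nM (adjusted p = 2.03e-05). LIPA, the lysosomal lipase that frees cholesterol from its esters, fell by 0.39 ± 0.03 at 50 nM (adjusted p = 1.51e-05). TMEM97, a binding partner of NPC1, rose by 0.33 ± 0.05 at 25 nM (adjusted p = 0.000551). SCARB1, a receptor for high-density lipoprotein, rose by 0.22 ± 0.05 at 50 nM (adjusted p = 0.00465) and stood at 0.38 with the length trend removed.

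Of 11 genes of sterol-regulated degradation and sensing, 4 were called higher and 4 lower at 25 nM, and 3 and 4 at 50 nM. These counts too lie near the background for so small a list. Over all genes the shares were 26.3% and 25.8% at 25 nM and 29.2% and 31.5% at 50 nM. RNF139, a ubiquitin ligase of the endoplasmic reticulum, measured 11.2, 10.5 and 10.1 FPKM in DMSO, 5.05, 5.79 and 5.37 FPKM at 25 nM and 4.67, 4.82 and 5.08 FPKM at 50 nM. All treated libraries were far below DMSO, and RNF139 fell by 0.96 ± 0.06 at 25 nM (adjusted p = 7.77e-06) and fell by 1.11 ± 0.06 at 50 nM (adjusted p = 1.69e-06). UFD1L, a cofactor that extracts ubiquitylated proteins from the membrane, measured 3.45, 3.46 and 3.72 FPKM in DMSO, 6.34, 5.60 and 7.01 FPKM at 25 nM and 7.35, 7.46 and 8.19 FPKM at 50 nM. It rose by 0.81 ± 0.08 at 25 nM (adjusted p = 7.49e-05) and by 1.09 ± 0.08 at 50 nM (adjusted p = 7.09e-06). ERLIN1, a sterol-responsive scaffold, fell by 0.33 ± 0.04 at 50 nM (adjusted p = 6.49e-05), or -0.22 with the length trend removed, and overlaps CHUK on the same strand.

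Of 9 genes of acetyl-CoA supply, electron supply and SREBP1, 5 were called higher and 1 lower at 25 nM, and 4 and 2 at 50 nM. Beside them stand 26.3% and 25.8% of all genes at 25 nM and 29.2% and 31.5% at 50 nM. POR, which passes electrons to SQLE and CYP51A1, rose by 0.45 ± 0.07 at 25 nM (adjusted p = 0.000696) and by 0.34 ± 0.07 at 50 nM (adjusted p = 0.00243). CYB5B, an outer mitochondrial cytochrome b5, rose by 0.29 ± 0.04 at 25 nM (adjusted p = 0.000534), and ACAT1, the mitochondrial thiolase, rose by 0.33 ± 0.05 at 25 nM (adjusted p = 0.000823). ACLY, which makes cytosolic acetyl-CoA from citrate, measured 112, 117 and 113 FPKM at 50 nM, against 141, 135 and 137 FPKM in DMSO, and fell by 0.27 ± 0.04 (adjusted p = 0.000192), or -0.17 with the length trend removed.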

How the data were processed

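RNA sequencing of 9 ACHN libraries was analysed from 2 tables. The deposited table named for read counts holds FPKM for 30673 genes, and the other deposited table holds log2 FPKM, without a pseudocount, for the 18859 genes above 0 in every library; the values of the 2 agree to within 0.005. The build is hg38, as the submitters' processing notes name it; the aligner, counter, annotation release and strandedness are not given in the sources used here. Multiplied by length, the values of 100% of these genes were whole numbers of 1 unit per library (tolerance 0.01), which gave fragments per library.

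Of the 30673 genes, the 15541 that reached 0.5 FPKM in 3 or more libraries were tested. They entered a limma 3.58.1 model (R 4.3.3, robust, trended eBayes) of log2(FPKM + 0.1), with all 9 libraries and group as the only term. P-values were adjusted by Benjamini-Hochberg over all genes tested and called under 0.05; SE and 95% intervals come from that fit. Ratios were compared by exact permutation (scipy 1.17.1).

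The members and lists were chosen with earlier results of these data known. The naming rule accounted for every member, took promoters of members called at both doses (at most 2 per role by the 50 nM change) and, per further list and dose, the 3 genes with the smallest p plus 1 of the other direction. Of these, 2 are not reported here. Of the promoters it took, those of FDPS, HSD17B7, EBP and INSIG2 are printed, and those of IDI1, MBTPS2 and NPC1 are not. An IDI1 window holds CACNCCAC, the MBTPS2 window holds none of the 4 motifs, and the NPC1 window holds only GGGCGG. The printed set is therefore not a balanced sample of motifs. Positions are the authors'; 13 of 28 members overlap another gene, 2 of them on the same strand. Alternatives were pseudocounts of 1 and 0.01, at least 1 FPKM in every library, and no filter, run on the 18859 genes of the log2 table. Others were 2 scalings, the replicate block, only the groups compared, plain eBayes and each library left out. The length trend removed, on the 14604 genes with a length, was added after seeing the data.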

Additional observations from a re-analysis of the deposited data

Results flagged for a closer look

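ACAT2 and MSMO1 were singled out because the 25 nM libraries all lay above, and the 50 nM libraries all below, every DMSO library, with the difference between the doses itself past the test. ACAT2, the cytosolic thiolase, differed between 50 nM and 25 nM by -0.400 on the log2 scale (adjusted p = 0.00185). MSMO1, the sterol methyl oxidase, differed by -0.346 (adjusted p = 0.000935). Against DMSO itself, ACAT2 at 25 nM did not pass, and the MSMO1 call at 25 nM was lost in 13 of 19 alternatives.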

How the results depend on the processing

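Of 51 called member values over the 3 comparisons, 31 kept their call in all 19 alternatives and 20 lost it in at least 1; none of the 51 changed sign. The calls of INSIG2, SREBF2, FDPS, EBP and IDI1 against DMSO were among those kept. Scaling by total fragments gave 6 members called lower at 50 nM against DMSO, in place of 10, and 6 lower at 50 nM against 25 nM, in place of 11; the cause was not tested. Among the other pathway genes, 50 nM against 25 nM gave 5 higher and 8 lower under total scaling, 1 higher under median centring, 4 higher with the length trend removed, and 1 higher and 9 lower with only the groups compared, in place of 2 and 16; centring gave 1867 genes higher and 3942 lower over all genes, in place of 2288 and 2917. Members called higher and lower numbered 13 and 5 at 25 nM, 8 and 7 at 50 nM, and 3 and 10 between the doses with the length trend removed. Of the 14604 genes in that setting, 4183 and 3711, 4434 and 4491, and 2519 and 2774 were so called. Median centring brought ACAT2 and LBR at 25 nM, and HMGCS1, IDI1, EBP, SREBF2 and MBTPS1 between the doses, past the threshold. With only the groups compared, LBR, NSDHL and SCAP passed at 50 nM. CYP51A1 was not tested with at least 1 FPKM in every library.

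Leaving out 1 library at a time, 10 to 14 members were higher and 5 to 6 lower at 25 nM, 6 to 9 higher and 7 to 10 lower at 50 nM, and 1 to 3 higher and 7 to 14 lower between the doses. For the other pathway genes those ranges were 13 to 17 and 9 to 12, 11 to 14 and 13 to 16, and 1 to 3 and 11 to 16. The 10 higher members at 25 nM came without DMSO replicate 2, where 3473 of all 15541 genes were called higher, in place of 4084. Over all genes the ranges were 3473 to 4073 higher and 3323 to 3941 lower at 25 nM. They were 3980 to 4853 and 4338 to 5269 at 50 nM, and 1469 to 2432 and 1972 to 3397 between the doses.

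Values that changed sign were all uncalled. Under total scaling the 50 nM against DMSO values were 0.028 for HMGCS1, 0.057 for SQLE and 0.033 for TM7SF2, and the 50 nM against 25 nM values 0.073 for CYP51A1, 0.060 for LBR, 0.059 for SCAP, 0.009 for MBTPS1 and 0.001 for STARD4. Median centring gave -0.037 for MVD between the doses and -0.019 for DHCR7 at 50 nM. With the length trend removed, 50 nM against DMSO gave 0.043 for HMGCS1, 0.034 for MVK and 0.052 for SQLE, 50 nM against 25 nM gave 0.050 for CYP51A1 and 0.015 for LBR, and 25 nM gave 0.003 for SCAP. Over the libraries left out, the ranges were -0.041 to 0.137 for MVD, -0.137 to 0.092 for CYP51A1 and -0.111 to 0.045 for SCAP between the doses, and -0.002 to 0.052 for FDFT1, -0.063 to 0.037 for SQLE, -0.116 to 0.040 for TM7SF2 and -0.059 to 0.070 for DHCR7 at 50 nM.

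Deviations of same-numbered samples from their group means correlated at -0.047 to 0.079 over all genes tested, beside -0.11 to 0.06 for differently numbered samples. This cannot decide whether same-numbered samples shared a culture or batch, which the sources used here do not state. Fitting the replicate number as a block ended 8 of the 51 member calls. The replicate block gave 12 higher and 5 lower members at 25 nM, 7 and 8 at 50 nM, and 2 and 9 between the doses. Over all 15541 genes it gave 3883 and 3757, 4409 and 4698, and 2033 and 2554. Depth limits CYP51A1 most, with 66 to 144 fragments per library.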
